A study of Sus scrofa with 61 samples.

Results

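The genes that build and break down glycogen were followed in the longissimus muscle of pig fetuses late in gestation. The set holds 9 genes, PYGM, PHKA1, PHKB, PHKG1, UGP2, GYG1, GYS1, GBE1 and PPP1R3C. Their probes were found by the gene name on the array, or by the symbol in the gene lists of the study. Those lists hold probes that the study picked on these same samples, so the probes named only there are not independent of the comparisons below. The rule gave 24 of the 60305 probes that are not controls, 21 by the array's own name and 3 by the study's lists only. Of these, 23 probes from 8 genes were among the 42436 probes bright enough to be tested.

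The study compared muscle gene expression at day 90 and day 110 of gestation in pigs with different survival at birth. One-colour Agilent arrays with Cy3-labelled total RNA were read for 61 fetuses, 1 array per fetus. All fetuses were male and delivered by caesarean. LW are purebred Large White fetuses (8 at day 90 and 9 at day 110) and MS are purebred Meishan fetuses (8 and 7). LWMS fetuses had an MS sow and an LW boar (8 and 8), and MSLW fetuses had an LW sow and an MS boar (8 and 5). Sows received mixed semen of both breeds, so purebred and crossbred fetuses shared litters, LW with MSLW and MS with LWMS. The labels do not name the sow of a fetus, so littermates were counted as separate fetuses and p-values may be too small. No fetus was treated.

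Muscle stores glucose as glycogen, a branched chain that grows on a protein primer and is taken down again by phosphorylase. Breakdown is switched on when phosphorylase kinase phosphorylates phosphorylase, and synthesis is switched on when protein phosphatase 1, held on the glycogen particle by targeting subunits, removes phosphate from glycogen synthase. A newborn piglet has very little fat and draws on this store in its first hours.

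Each array probe is a DNA oligo of 60 bases, and several member probes overlap each other, so they are not separate looks at a gene. The main PYGM probe A_72_P516452 and A_72_P574044 are shown because they share the run of 38 bases in capitals.

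A_72_P516452: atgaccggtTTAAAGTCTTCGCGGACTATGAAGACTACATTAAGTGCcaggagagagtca

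A_72_P574044: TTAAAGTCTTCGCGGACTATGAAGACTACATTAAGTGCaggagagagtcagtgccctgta

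After the run in capitals, both go on with the same 12 bases, but the first probe has 1 more base in between. The third PYGM probe, O13134, lies elsewhere, and the single PHKG1 probe, O12536, is shown with it because probes of these different members hold the same 14 bases, in capitals.

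O13134: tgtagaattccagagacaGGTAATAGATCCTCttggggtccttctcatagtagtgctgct

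O12536: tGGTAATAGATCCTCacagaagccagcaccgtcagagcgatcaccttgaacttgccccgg

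Among the 6 UGP2 probes, A_72_P278224 and A_72_P581152 shared 57 bases and A_72_P165756 and A_72_P606238 shared 50. The probes of GYS1, GYG1, GBE1 and PHKB shared no run of 20 bases with another probe on the array.

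Between 34347 and 45684 probes per array were well above background (median 41983), with group medians of 42934.5 to 43551 at day 90 and of 40743 to 42387 at day 110. Levels below are log2 values of the signal after quantile normalization, compared between fetuses for 1 probe at a time. The main probe of a gene is its brightest one on average. A difference is given in log2 units with its standard error (SE) from limma, and it passed the test when the Benjamini-Hochberg adjusted p over all 42436 probes was under 1%. Of 10 skeletal muscle markers, CASQ1, CKM, MYH7, TNNI2 and TNNT3 rose with age in every genotype. MYH3, the embryonic myosin heavy chain, and MYOG, a regulator of muscle differentiation, fell in every genotype. Between the purebreds, MYH3 and MYOG were lower in MS at day 110, while CASQ1 was higher in MS on both days. At day 90 CKM was also higher in MS and TNNT3 was lower. The summed level of the 10 markers had group medians of 2338610 to 2393846 at day 90 and of 2511454 to 2547839 at day 110, with muscle transcripts bright in every group. Markers of connective tissue fibroblasts moved with age and breed: 5 of 5 (COL1A1, COL3A1, DCN, LUM and PDGFRA) fell with age in every genotype, and 4 of 5, all but PDGFRA, were lower in MS at day 110. At day 90 their summed level was 299790 to 379614 among LW fetuses and 342078 to 369165 among MS fetuses. At day 110 it was 117466 to 188648 among LW fetuses and 75167 to 97779 among MS fetuses, which did not overlap. In the crosses it ran from 317092 to 390571 at day 90 and from 92223 to 168952 at day 110. Of 5 endothelial markers, CDH5, KDR and PECAM1 fell with age in every genotype, VWF rose, and KDR was lower in MS on both days. Their summed level at day 110 was 16826 to 20582 among LW fetuses and 14428 to 16594 among MS fetuses, without overlap. Of 5 adipocyte markers, FABP4 was lower in MS on both days, and the summed level at day 110 was 12458 to 22939 among LW fetuses and 5476 to 10624 among MS fetuses, again without overlap. Of the Schwann cell markers S100B was higher in MS on both days, and CSF1R (leukocytes) and AHSP (erythroid cells) fell with age in every genotype. None of the markers named here was at 0, fewer cells of a type and less RNA per cell cannot be told apart in whole muscle, and the part of these shifts in the results below was not tested.

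**Figure D1:**
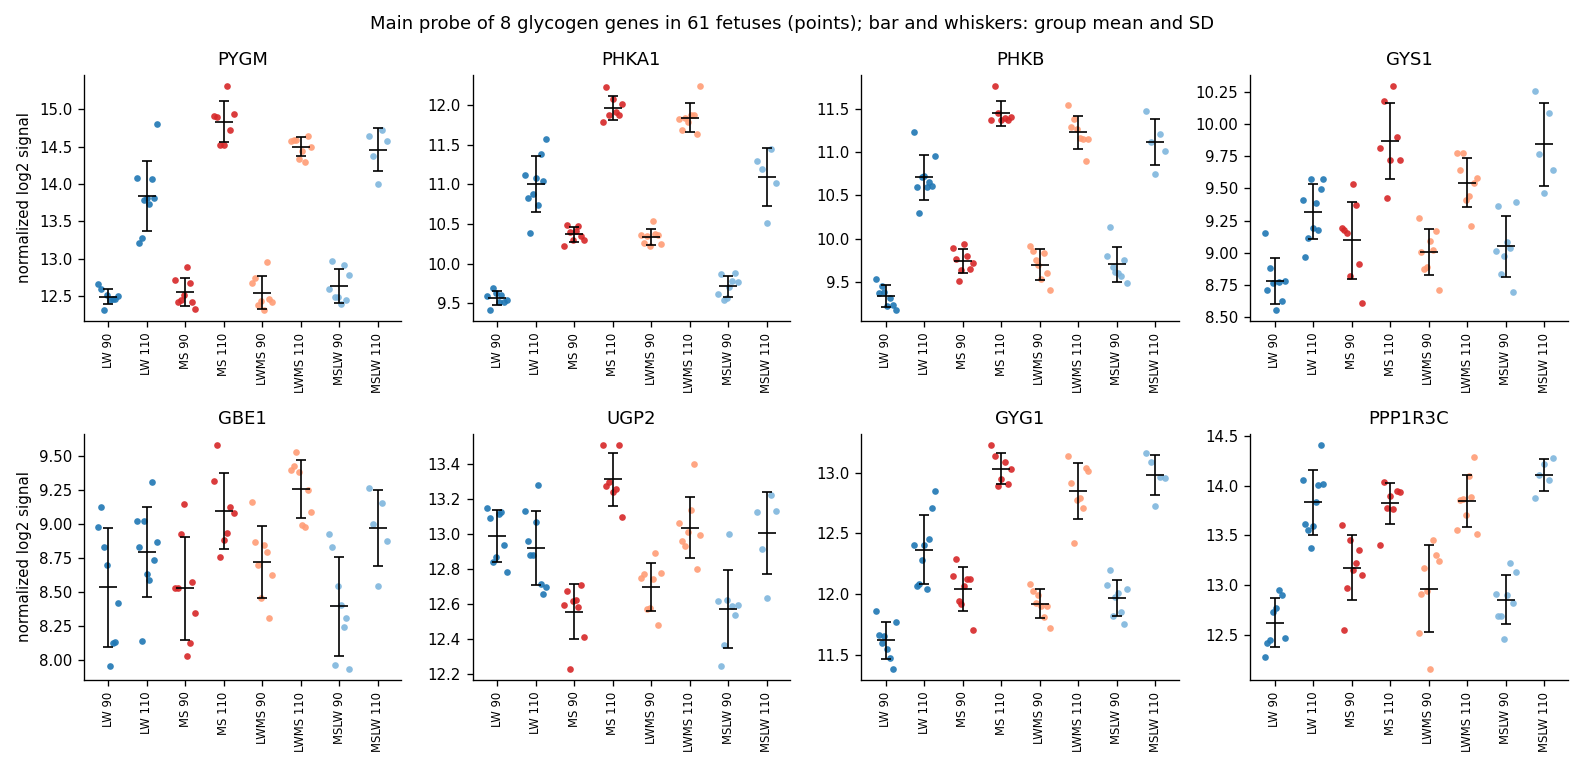
Normalized log2 signal of the main probe of 8 glycogen genes (vertical axes, own scale per gene) in each of the 61 fetuses, by genotype and day (horizontal axis), with the group mean and SD as bar and whiskers. Day 110 stands above day 90 for most genes, whereas LW fetuses of both days overlap for GYS1, UGP2 and GBE1.

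Most glycogen genes rose between day 90 and day 110 in every genotype. In LW 6 of 8 main probes rose and none fell, against 21.8% of all tested probes that rose and 23.5% that fell. In MS all 8 rose, against 28.6% of all tested probes that rose and 28.1% that fell. All 8 rose in LWMS (25.1% of all tested probes rose and 25.7% fell) and in MSLW (20.8% and 23.8%). Of the 23 member probes, 15 rose in LW, 22 in MSLW and 23 each in LWMS and MS. The median change of the 8 main probes was 0.98 in LW, 1.13 in MSLW, 0.90 in LWMS and 0.88 in MS, while the median over all tested probes stayed between 0.02 and 0.04. Counted by fetus, the days did not overlap for 5 of 8 main probes in LW (10.4% of all tested probes were higher at day 110 without overlap), 6 in MSLW (12.4%), 5 in LWMS (14.1%) and 5 in MS (18.6%). The members that did not pass in LW were UGP2 and GBE1.

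Comparing the purebreds, MS fetuses had more signal for much of the set. At day 90, 4 members were higher in MS (PHKA1, PHKB, GYG1 and PPP1R3C; 6.23% of all tested probes were higher) and UGP2 was lower (6.61% were lower). At day 110, 6 members were higher in MS (PYGM, PHKA1, PHKB, GYS1, UGP2 and GYG1; 13.7% of all tested probes) and no member was lower (15.2% were lower). The change with age itself was larger in MS than in LW for PYGM and UGP2, 2 of 8 members against 2.56% of all tested probes, and it was smaller for none (3.39% of all tested probes).

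**Figure D2:**
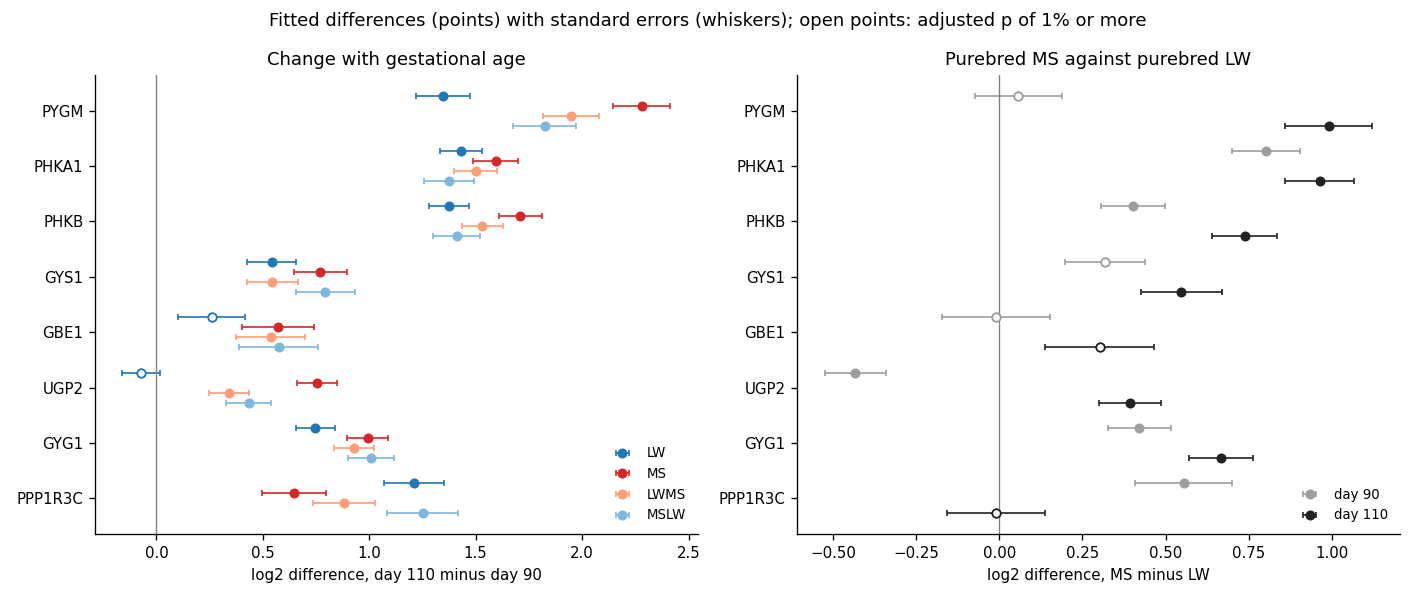
Fitted log2 differences (points) with SE (whiskers) of the main probes, on the left day 110 minus day 90 within each genotype and on the right MS minus LW at each day; open points had an adjusted p of 1% or more. UGP2 runs from -0.43 at day 90 to 0.39 at day 110 in the right panel, and PYGM from 0.06 to 0.99.

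PYGM, the muscle form of glycogen phosphorylase that releases glucose 1-phosphate from glycogen, had the largest change with age of the set in MS and in both crosses. In LW its main probe ran from 12.32 to 12.66 at day 90 (median 12.48) and from 13.22 to 14.80 at day 110 (median 13.81). In MS it ran from 12.33 to 12.89 at day 90 (median 12.48) and from 14.52 to 15.31 at day 110 (median 14.90). Every day 110 fetus of each breed was above every day 90 fetus of its breed, and at day 110 only the highest LW fetus reached into the MS range. LWMS fetuses ran from 12.32 to 12.96 at day 90 (median 12.45) and from 14.30 to 14.64 at day 110 (median 14.54). MSLW fetuses ran from 12.39 to 12.98 at day 90 (median 12.54), and the 5 MSLW fetuses of day 110 had 14.64, 14.37, 14.00, 14.73 and 14.57. In both crosses, too, the days did not overlap.

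PYGM rose by 1.35 ± 0.13 in LW (adjusted p = 8.74e-14) and by 2.28 ± 0.14 in MS (adjusted p = 8.06e-22), which is 2.54-fold and 4.85-fold. The rise was 1.95 ± 0.13 in LWMS and 1.82 ± 0.15 in MSLW. The rise was larger in MS than in LW by 0.93 ± 0.19 (adjusted p = 0.00041), and this difference passed for all 3 PYGM probes (0.93 to 1.17). Among these, O13134 was dim, and whether it has the direction that detects the PYGM transcript was not tested. Purebreds differed by 0.06 ± 0.13 at day 90 (adjusted p = 0.827) and by 0.99 ± 0.13 at day 110 (adjusted p = 1.64e-08). Within single slides, MS minus LW at day 110 was positive on 6 of 6 slides (0.83 to 1.53). In the order of group means the day 90 groups came first, and no neighbours among them differed (adjusted p = 0.837 to 0.999). LW followed at day 110, then MSLW, which was higher than LW (0.62, adjusted p = 0.00293), then LWMS and MS, which did not differ from the group before them (adjusted p = 0.961 and 0.113).

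Outside the set, the probes whose levels followed those of PYGM most closely over the 61 fetuses were for CKMT2, the mitochondrial creatine kinase of muscle (r = 0.981), DCI, an enzyme of fatty acid oxidation (r = 0.981), LOC100156879 (r = 0.980), ISOC2 (r = 0.978) and OMC (r = 0.978). These 61 values share the change with age. With each group mean subtracted, the closest were ENO3, the muscle enolase (r = 0.828), PPP2R4 (r = 0.826), CKM, the cytosolic creatine kinase of muscle (r = 0.822), LOC100157517 (r = 0.819) and ALDOA, the muscle aldolase (r = 0.816). The correlations are given as a description.

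Phosphorylase kinase, which switches phosphorylase on, is made of alpha, beta, gamma and calmodulin subunits. PHKA1 encodes the regulatory alpha subunit of muscle and is an X-linked gene in mammals. Its main probe, O11629, separated fetuses by the genotype of their sow. At day 90 it ran from 9.42 to 9.70 in LW (median 9.57) and from 9.54 to 9.88 in MSLW (median 9.74), both from LW sows. From MS sows it ran from 10.22 to 10.53 in LWMS (median 10.35) and from 10.22 to 10.49 in MS (median 10.38). Every fetus of an MS sow was above every fetus of an LW sow. At day 110 LW ran from 10.38 to 11.57 (median 11.03) and the 5 MSLW fetuses had 11.29, 11.20, 10.51, 11.45 and 11.01. LWMS ran from 11.63 to 12.24 (median 11.82) and MS from 11.79 to 12.22 (median 11.91), so that fetuses of MS and LW sows again did not overlap.

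The crosses differed accordingly. PHKA1 was lower in MSLW than in LWMS by 0.62 ± 0.10 at day 90 (log2 difference -0.62, adjusted p = 4.65e-05) and by 0.75 ± 0.12 at day 110 (-0.75, adjusted p = 1.78e-05). It was the only one of 8 members that differed between the crosses, against 0.148% of all tested probes lower in MSLW and 0.351% higher at day 90, and 0.370% lower and 0.542% higher at day 110. Ranges of the crosses that do not overlap, with MSLW below, were found on each day for PHKA1 alone among the 8 members, and for 0.0990% of all tested probes at day 90 and 0.497% at day 110. At day 110 the difference had the same sign on 5 of 5 slides (-1.27 to -0.43). Neighbours of the same sow genotype did not differ: LW and MSLW were 0.15 apart at day 90 (adjusted p = 0.534) and 0.09 at day 110 (adjusted p = 0.675), and LWMS and MS were 0.03 (adjusted p = 0.978) and 0.12 apart (adjusted p = 0.529). Averaged over boars, PHKA1 was higher with MS than with LW sows by 0.71 ± 0.07 at day 90 and 0.86 ± 0.08 at day 110 (adjusted p = 3.25e-11 and 8.15e-13). An MS boar against an LW boar came with 0.09 ± 0.07 and 0.11 ± 0.08 (adjusted p = 0.554 and 0.332). The study states that in these male fetuses the X chromosome genes came from the mother. Sow genotype, litter and the fetus's own X-linked copy of PHKA1 therefore cannot be told apart here.

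The second PHKA1 probe, A_72_P031001, named by the study's lists only, showed the same split, with a wider gap than O11629 at day 110 only. Because those lists were picked on these same samples, A_72_P031001 is not independent of this comparison. At day 90 fetuses of LW sows ran from 6.20 to 7.31 (n = 16) and those of MS sows from 7.64 to 8.26 (n = 16). At day 110 they ran from 7.12 to 8.05 (n = 14) and from 8.74 to 9.51 (n = 15). MSLW was 2.14-fold lower than LWMS at day 90 (adjusted p = 2.6e-10) and 3.37-fold lower at day 110 (log2 difference -1.75 ± 0.13, adjusted p = 3.66e-15). No probe of another member separated the fetuses by sow without overlap. How many of all tested probes separated them in this way was not counted. The array's description of O11629 names a PHKA1 pseudogene beside PHKA1. Another 3 unnamed probes, picked after these values were seen because they share 53, 49 and 31 bases with O11629, had MSLW minus LWMS values of -0.71, -0.70 and -0.68 at day 110.

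**Figure D3:**
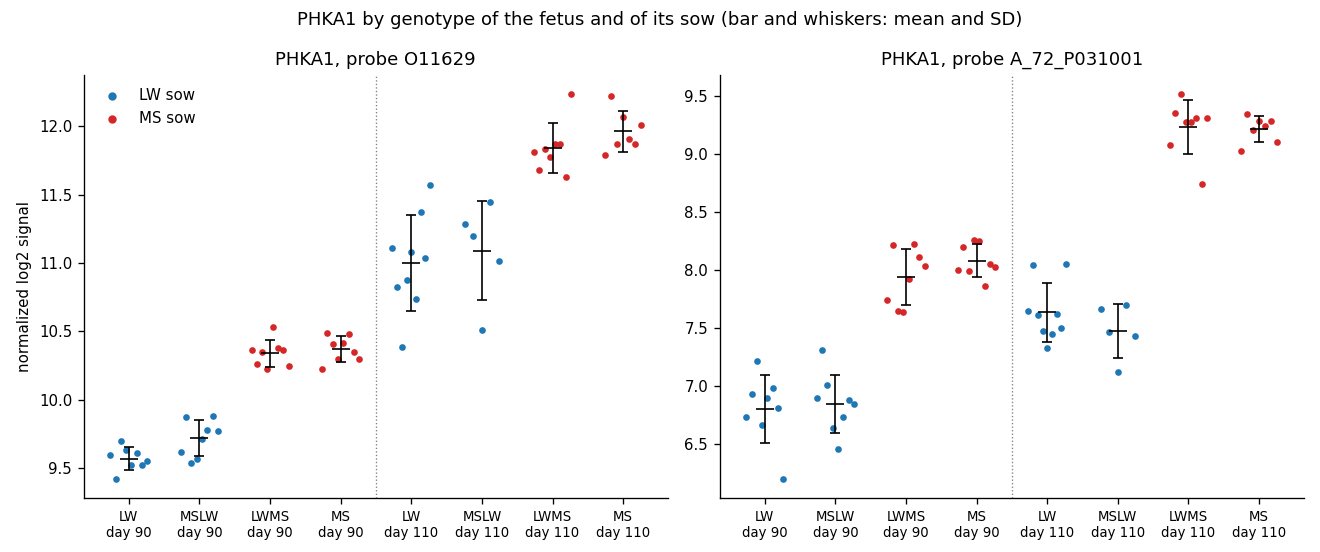
Normalized log2 signal (vertical axis) of both PHKA1 probes in each fetus, by genotype and day (horizontal axis) and coloured by the genotype of the sow, with group mean and SD. At each day the fetuses of MS sows lie above all fetuses of LW sows on both probes.

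PHKA1 also rose with age, by 1.43 ± 0.10 in LW, 1.37 ± 0.12 in MSLW, 1.50 ± 0.10 in LWMS and 1.59 ± 0.11 in MS. The difference between the rises of MS and LW did not pass (0.16 ± 0.14, adjusted p = 0.509). On both days MS was above LW, by 0.80 ± 0.10 at day 90 and 0.96 ± 0.10 at day 110 (adjusted p = 1.24e-08 and 4.27e-11). Purebred ranges that do not overlap with MS on top were found for 1 member at day 90, PHKA1 (3.09% of all tested probes), and for 3 at day 110, PHKA1, PHKB and GYG1 (3.77%).

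PHKB encodes the beta subunit, which is regulatory as well. Its main probe ran from 9.18 to 9.53 in LW at day 90 (median 9.34) and from 10.29 to 11.23 at day 110 (median 10.66). In MS it ran from 9.51 to 9.93 (median 9.74) and from 11.37 to 11.76 (median 11.39). All MS fetuses of day 110 were above all LW fetuses of that day, while at day 90 the breeds met in a narrow overlap. PHKB rose by 1.38 ± 0.09 in LW and by 1.71 ± 0.10 in MS, 2.59-fold and 3.27-fold, and by 1.53 ± 0.10 in LWMS and 1.41 ± 0.11 in MSLW. MS exceeded LW by 0.40 ± 0.10 at day 90 (adjusted p = 0.00134) and by 0.74 ± 0.10 at day 110 (adjusted p = 1.39e-08). LWMS ran from 9.40 to 9.91 at day 90 and from 10.90 to 11.54 at day 110 (medians 9.72 and 11.21). MSLW ran from 9.49 to 10.13 at day 90 (median 9.64) and read 11.47, 11.12, 10.75, 11.21 and 11.02 at day 110. The crosses overlapped on both days and did not differ on the main probe (adjusted p = 0.997 and 0.715).

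The 3 PHKB probes disagreed on whether the change with age depended on breed. On the main probe the rise was larger in MS by 0.34 ± 0.14 (adjusted p = 0.0919). A probe the array leaves unnamed, tied to PHKB by the study's lists only, gave 0.57 ± 0.16 (adjusted p = 0.0116). A_72_P195857 gave 0.98 ± 0.25 (adjusted p = 0.0045), and alone of the 3 it missed the threshold between purebreds at day 90 (0.31, adjusted p = 0.223). The array describes A_72_P195857 by a partial match to a cytochrome b, and it too is tied to PHKB by the study's lists only. The study picked the probes of its lists on these same samples, so neither probe is independent of this comparison.

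For PHKG1, the catalytic gamma subunit of muscle, the only probe, O12536, was too dim to be tested. It was well above background on 35 of 61 arrays, and in no group on 80% of the arrays. Group means ran from 3.73 in MS at day 90 to 4.81 in LWMS at day 110, and fetuses from 2.84 to 6.23, with broad overlap of all groups. Whether O12536 has the direction that detects the PHKG1 transcript was not tested, so its dim signal does not give the level of PHKG1.

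UGP2 makes UDP-glucose, the glucose donor of glycogen synthesis, and it was the member whose breed difference changed sign with age. In LW it ran from 12.79 to 13.15 at day 90 (median 13.02) and from 12.66 to 13.28 at day 110 (median 12.88), so both days overlapped. In MS it ran from 12.23 to 12.71 at day 90 (median 12.61) and from 13.10 to 13.51 at day 110 (median 13.27). At day 90 all MS fetuses were below all LW fetuses, the one member with purebreds apart in this direction (3.65% of all tested probes), and the MS days did not overlap. LWMS ran from 12.48 to 12.89 at day 90 (median 12.75) and from 12.80 to 13.40 at day 110 (median 13.00). MSLW ran from 12.24 to 13.00 at day 90 (median 12.59) and read 13.13, 12.92, 12.64, 13.22 and 13.13 at day 110. Days overlapped in both crosses.

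The fitted change of UGP2 with age was -0.07 ± 0.09 in LW (adjusted p = 0.528), 0.43 ± 0.10 in MSLW (adjusted p = 0.000369), 0.34 ± 0.09 in LWMS (adjusted p = 0.00112) and 0.76 ± 0.10 in MS (adjusted p = 5.38e-10). MS was below LW at day 90 (-0.43 ± 0.09, adjusted p = 0.00028) and above it at day 110 (0.39 ± 0.09, adjusted p = 0.000506), and the changes differed by 0.83 ± 0.13 (adjusted p = 1.43e-05). On single slides, MS minus LW was negative at day 90 on 8 of 8 (-0.61 to -0.23) and positive at day 110 on 6 of 6 (0.34 to 0.41). All 6 UGP2 probes passed for the difference in change (0.76 to 0.98). At day 90, 5 of 6 passed as lower in MS, and at day 110, 6 of 6 passed as higher. The exception at day 90 was A_72_P427819 (-0.29 ± 0.13, adjusted p = 0.102), which also had the largest change with age, 1.28 in MS and 0.30 in LW (adjusted p = 0.0314). In the order of UGP2 means no neighbouring groups passed, the closest being LWMS at day 90 and LW at day 110 (0.22, adjusted p = 0.0296).

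**Figure D4:**
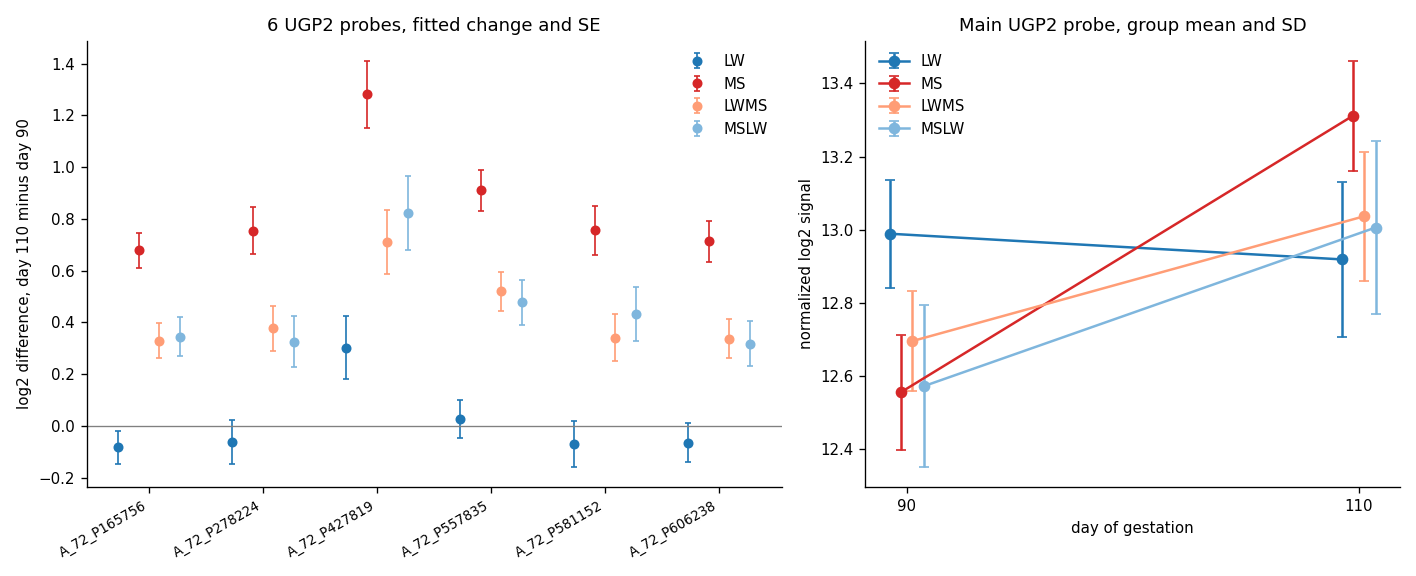
Left, fitted change with age and SE (vertical axis, log2 difference) of the 6 UGP2 probes (horizontal axis) in the 4 genotypes. Right, group mean and SD of the main UGP2 probe (vertical axis, normalized log2 signal) at both days (horizontal axis), where LW goes from 12.99 to 12.92 and MS from 12.56 to 13.31.

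GYG1 encodes glycogenin, the protein primer on which a glycogen particle starts. It ran from 11.39 to 11.86 in LW at day 90 (median 11.63) and from 12.04 to 12.85 at day 110 (median 12.40). In MS it ran from 11.70 to 12.29 at day 90 (median 12.10) and from 12.89 to 13.23 at day 110 (median 13.03). Ranges of the purebreds overlapped at day 90 and no longer met at day 110. LWMS ran from 11.72 to 12.09 at day 90 and from 12.42 to 13.14 at day 110 (medians 11.92 and 12.85). MSLW ran from 11.76 to 12.20 at day 90 (median 12.00) and read 13.16, 13.09, 12.73, 12.96 and 12.95 at day 110. The days were apart in every genotype, and both crosses at day 110 spanned the gap between the purebreds. GYG1 rose by 0.75 ± 0.09 in LW, 1.01 ± 0.11 in MSLW, 0.93 ± 0.09 in LWMS and 0.99 ± 0.10 in MS. MS was higher by 0.42 ± 0.09 at day 90 (adjusted p = 0.000622) and 0.67 ± 0.10 at day 110 (adjusted p = 9.58e-08), and both GYG1 probes passed each time.

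GYS1, the muscle glycogen synthase that lengthens the chains, changed less. In LW it ran from 8.55 to 9.15 at day 90 (median 8.77) and from 8.96 to 9.57 at day 110 (median 9.39). In MS it ran from 8.61 to 9.54 at day 90 (median 9.17) and from 9.42 to 10.30 at day 110 (median 9.82). Days and breeds overlapped throughout. GYS1 rose by 0.54 ± 0.12 in LW, 0.79 ± 0.14 in MSLW, 0.54 ± 0.12 in LWMS and 0.77 ± 0.12 in MS, 1.46-fold in LW and 1.71-fold in MS. The breeds differed by 0.32 ± 0.12 at day 90 (adjusted p = 0.0535) and by 0.55 ± 0.12 at day 110 (adjusted p = 0.000233). Its second probe, A_72_P442869, passed on day 90 as well (0.44 ± 0.13, adjusted p = 0.00831). Among the crosses, LWMS ran from 8.71 to 9.27 and from 9.20 to 9.78 at the successive days. MSLW ran from 8.69 to 9.40 at day 90 and read 10.26, 9.77, 9.47, 10.09 and 9.64 at day 110, where every fetus was above those of day 90.

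GBE1, the branching enzyme that puts in the branch points, had group SDs of 0.21 to 0.44, wide against its change with age. It ran from 7.96 to 9.13 in LW at day 90 (median 8.56) and from 8.14 to 9.31 at day 110 (median 8.83). In MS it ran from 8.03 to 9.15 (median 8.53) and from 8.76 to 9.58 (median 9.08). All 4 purebred groups overlapped. The change with age was 0.26 ± 0.16 in LW (adjusted p = 0.16), 0.54 ± 0.16 in LWMS (adjusted p = 0.00355), 0.57 ± 0.17 in MS (adjusted p = 0.00249) and 0.57 ± 0.18 in MSLW (adjusted p = 0.00704). Without MSLW fetus 1, 2, 4 or 5 of day 110 the change in MSLW no longer passed (adjusted p = 0.0316, 0.0154, 0.0233 and 0.0102). Purebreds differed by -0.01 ± 0.16 at day 90 and 0.30 ± 0.16 at day 110 (adjusted p = 0.982 and 0.139). The second GBE1 probe, O11457, which was dim and well above background on 57 of 61 arrays, rose in LW as well (0.72 ± 0.15, adjusted p = 2.51e-05). The probes of GBE1 thus differed on the change in LW. LWMS ran from 8.31 to 9.16 at day 90 and from 8.98 to 9.53 at day 110. MSLW ran from 7.94 to 8.93 at day 90 and from 8.54 to 9.26 at day 110 (n = 5). Days overlapped in both crosses.

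PPP1R3C encodes a subunit that targets protein phosphatase 1 to glycogen. On the main probe, A_72_P653642, LW ran from 12.28 to 12.95 at day 90 (median 12.60) and from 13.37 to 14.41 at day 110 (median 13.84). MS ran from 12.54 to 13.60 at day 90 (median 13.19) and from 13.40 to 14.03 at day 110 (median 13.89). The LW days were apart, the MS days overlapped, and at day 110 the MS range lay inside that of LW. LWMS ran from 12.16 to 13.45 and from 13.51 to 14.29 (medians 13.06 and 13.86). MSLW ran from 12.46 to 13.22 at day 90 (median 12.86) and read 13.87, 14.10, 14.22, 14.05 and 14.28 at day 110. Both crosses had their days apart. The rise was 1.21 ± 0.14 in LW, 1.25 ± 0.17 in MSLW, 0.88 ± 0.15 in LWMS and 0.65 ± 0.15 in MS. MS was higher at day 90 by 0.55 ± 0.15 (adjusted p = 0.00359) and at day 110 the difference was -0.01 ± 0.15 (adjusted p = 0.969). PPP1R3C was the only member with a smaller rise in MS than in LW on its main probe, a difference of -0.56 ± 0.21 that did not pass (adjusted p = 0.0578).

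The 3 PPP1R3C probes gave different answers at day 110. A_72_P261022 put MS above LW by 0.47 ± 0.15 (adjusted p = 0.0118) and O13753 by 1.08 ± 0.21 (adjusted p = 3.1e-05). At day 110 the LW fetuses had 6.51 to 6.85 on O13753 and the MS fetuses 6.93 to 8.17, with no overlap. O13753 did not pass for the change with age in LW (0.57, adjusted p = 0.0142) or MSLW (0.24, adjusted p = 0.401). With group means subtracted, its correlation with the main probe over 61 fetuses was -0.06, against 0.75 for A_72_P261022 with the main probe. O13753 shares 37 bases with an unnamed probe, A_72_P638375, that is written in the opposite direction. The first 30 bases of that shared stretch are shown for both, to make the reversal visible.

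O13753: agtgaaatatttagagtagaaaactgtggg

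A_72_P638375: cccacagttttctactctaaatatttcact

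Each line is the reverse complement of the other. Another unnamed probe, A_72_P351603, shares 24 bases with O13753 in the same direction, and both unnamed probes were picked for the shared bases after the values of O13753 were seen. A_72_P638375 had values near those of the main probe, with an MS minus LW difference of -0.08 ± 0.15 at day 110 and a change with age of 1.17 in LW and 0.57 in MS. A_72_P351603 had values near those of O13753, with 1.12 ± 0.20, 0.66 and 1.07. Which direction belongs to the PPP1R3C transcript was not tested, since no pig genome or transcript sequence was used here, and the result for MS against LW at day 110 depends on the probe taken.

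**Figure D5:**
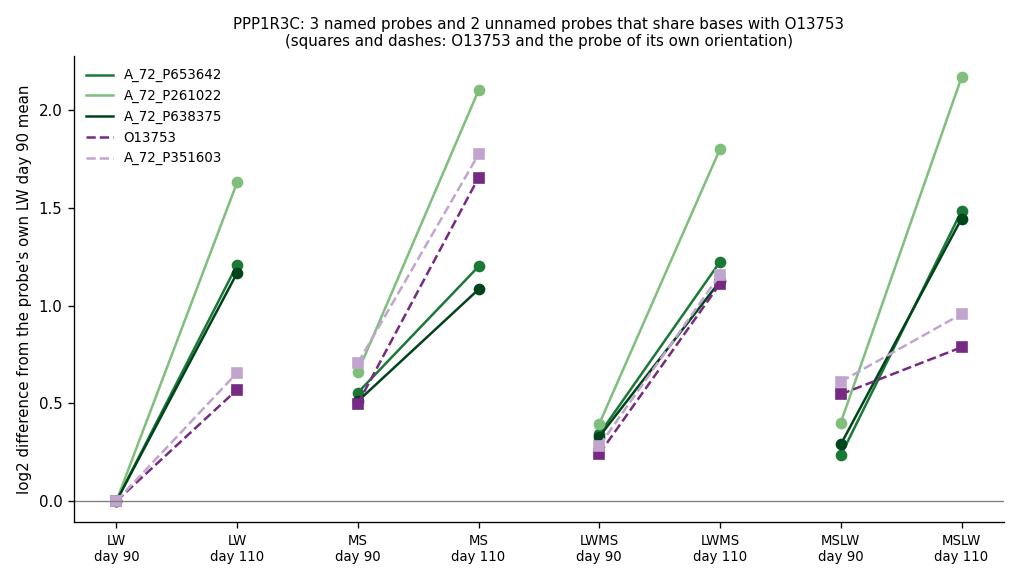
Group means of the 3 PPP1R3C probes and 2 unnamed overlapping probes, each as a log2 difference from its own LW day 90 mean (vertical axis), by genotype and day (horizontal axis). At day 110, O13753 and A_72_P351603 (squares, dashed lines) are highest in MS, and the others (circles, solid lines) are highest in MSLW.

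The parental model asked whether the change with age depended on the sow's or the boar's breed. With the sow, 2 of 8 members passed, both with a higher value for MS sows (1.16% of all tested probes, and 1.89% with a lower one): PYGM, with a change larger by 0.54 ± 0.13 for MS sows (adjusted p = 0.00728), and UGP2, larger by 0.37 ± 0.09 (adjusted p = 0.00826). With the boar, UGP2 alone passed, 1 of 8 members (0.137% of all tested probes higher and 0.325% lower), with a change larger by 0.46 ± 0.09 for MS boars (adjusted p = 0.00372). The corresponding PYGM value was 0.40 ± 0.13 (adjusted p = 0.122). Of the 6 UGP2 probes, 5 passed for the sow and 4 for the boar. For the sow, 2 of 3 PYGM probes passed. In PHKA1 1 of 2 probes (0.48) and in PHKB 1 of 3 (0.79) passed for the sow, not the main ones but probes named by the study's lists only. The calls of the main probes lie near the threshold. None of these was kept with the median spot signal, the deposited values or normexp background correction (adjusted p = 0.0121 to 0.0267). Without MSLW fetus 2 or 3 of day 110, the sow calls of PYGM (adjusted p = 0.0105 and 0.0186) and UGP2 (adjusted p = 0.0124 and 0.0214) were lost too.

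Split by day, a comparison chosen after the values above were seen, several members were higher with an MS parent of either sex at day 110. With an MS sow, PYGM (0.51 ± 0.10), PHKA1, PHKB (0.43 ± 0.07) and GYG1 (0.27 ± 0.07) passed, 4 of 8 members against 6.66% of all tested probes, and none was lower (8.42%). With an MS boar, PYGM (0.48 ± 0.10), PHKB (0.31 ± 0.07), GYS1 (0.42 ± 0.09) and GYG1 (0.40 ± 0.07) passed, again 4 of 8 against 5.93%, and none was lower (7.36%). At day 90 the only main probes that passed were those of PHKA1, higher with an MS sow (2.90% of all tested probes higher and 3.58% lower), and UGP2, lower with an MS boar (-0.28 ± 0.06, adjusted p = 0.00221). Of the 23 member probes, 2 were higher and 2 lower with an MS sow at day 90, the lower ones being UGP2 probes (-0.19 and -0.23), and 4 were lower with an MS boar. At day 110, 14 of the 23 were higher with an MS sow and 12 with an MS boar, among them UGP2 probes each time. With the boar, 2.40% of all tested probes were higher at day 90 and 2.74% lower.

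The mean of the crosses was then set against the midpoint of the purebreds. By limma no member passed at either day, while 0.0495% of all tested probes were above the midpoint at day 90 and 0.0754% at day 110, and 0% and 0.00236% were below it. At an unadjusted p under 5% there were 2 members at day 90 (PHKB and UGP2), against 3.63% of all tested probes, and 1 at day 110 (GYG1), against 7.02%. PYGM at day 110 had a midpoint of 14.34, with 14.50 in LWMS and 14.46 in MSLW. GYG1 had the largest distance at day 110, 0.22 ± 0.07 above the midpoint (adjusted p = 0.347). For PHKA1 the mean of the crosses was 0.02 below the midpoint at day 110 (-0.02 ± 0.08) although neither cross lay near it: the midpoint was 11.48, LWMS had 11.84 and MSLW 11.09.

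With group means subtracted, UGP2 had almost no correlation with the other members over the 61 fetuses (r from -0.10 to 0.12), while PYGM, PHKA1, PHKB, GYS1 and GYG1 had r from 0.38 to 0.62 with each other. PPP1R3C had r from -0.22 to 0.23 with the rest. The values share arrays and normalization and are given as a description.

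Around the set, 43 further genes of glycogen metabolism were listed and 35 had a probe that could be tested. The counts and values below are those of the main probe of each gene. With age, 14 of 35 rose and 6 fell in LW, where 21.8% of all tested probes rose and 23.5% fell, and 16 rose and 6 fell in MS, where 28.6% rose and 28.1% fell. Among the genes of breakdown, PYGL, the liver phosphorylase, and GAA, the lysosomal glucosidase, rose in MS (0.48 and 0.77) and were higher in MS at day 110 (0.29 and 0.51). Of the phosphatase genes, PPP1R3B, another targeting subunit, rose by 1.49 in LW and 1.39 in MS, and PPP1CB, a catalytic subunit, by 0.50 and 0.42. These were the smallest changes among the 12 PPP1CB probes, which reached 1.22 in LW, and 12 and 11 of them passed in LW and MS. EPM2A, which encodes the glycogen phosphatase laforin, rose by 1.27 in LW and 1.45 in MS.

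At day 110, 12 of the 35 were higher in MS and 4 were lower, against 13.7% and 15.2% of all tested probes. EPM2A was higher by 0.61, PPP1R3F by 0.63, PPP1R3D by 0.54, PPP1CC by 0.31 and CALM3, a calmodulin gene, by 0.47. PPP1CB was higher by 0.68 on its main probe, the largest of its 12 values (0.15 to 0.68), of which 8 passed. Of the subunits of AMP-activated kinase, PRKAB2 was higher (1.00) and rose with age in both breeds (1.03 and 1.54), PRKAG3 was higher on its main probe (1.49, with 3 probes from -0.02 to 1.49), and PRKAA1 and PRKAB1 were lower (-0.30 and -0.20, the latter passing on 1 of 3 probes). PRKACA, a catalytic subunit of protein kinase A, was lower on its main probe (-0.23) and not on its second (0.17). PGM1, which converts glucose 1-phosphate to glucose 6-phosphate and back, was higher on all 3 probes at day 110 (0.74 to 3.01), and PGM2L1 was higher by 0.54. HK1, the hexokinase of many tissues, fell with age (-1.02 in LW and -1.35 in MS) and was lower in MS (-0.61).

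Further genes passed on their main probe for the change with age in both breeds and did not pass between the breeds at day 110. HK2 rose by 0.37 in LW and 0.41 in MS, and the glucose transporters SLC2A1 and SLC2A4 rose by 0.83 and 1.91 in LW and by 1.39 and 1.22 in MS. Among kinase subunits GSK3A (0.41 and 0.46), PRKAA2 (0.44 and 0.37) and PRKAG1 (0.45 and 0.32) rose, although 1 of the 3 PRKAG1 probes was higher in MS at day 110 (0.34). GYG2, the second glycogenin gene, fell by 0.78 in LW and 0.69 in MS (-0.78 and -0.69), and PGM5 fell by 0.79 and 0.96 (-0.79 and -0.96). At day 90, 8 of the 35 were higher in MS and 1 was lower, against 6.23% and 6.61% of all tested probes. Between the crosses none of the 35 passed by limma on either day, with 6 at day 90 and 4 at day 110 at an unadjusted p under 5%, against 9.55% and 15.0% of all tested probes.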

How the data were processed

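The authors deposited scanner files with the intensity of each spot, made with Agilent Feature Extraction 10.10.1.1 per the submitters' processing notes. Their deposited quantile-normalized log2 values, 44368 rows lacking 2351 values, served as an alternative. Here the scanner's background-subtracted intensity was set to the same quantiles on all 61 arrays and put on the log2 scale, without spots marked non-uniform, and spots of a probe were averaged. Probes were kept when 80% or more of the arrays in any of 8 groups had them well above background.

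limma 3.58.1 (R 4.3.3) fitted 8 group means to all kept probes, with moderated two-sided tests and Benjamini-Hochberg adjustment (threshold 1%). The parental model had day, maternal and paternal genotype and their 3 pairwise interactions. The study's random sow effect could not be fitted, because the labels give no sow. Figures were drawn with matplotlib 3.10.9.

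Named genes were all members with every probe, the listed pathway genes that passed for MS against LW at day 110 or for age in both purebreds, and the 5 genes most correlated with PYGM. Members and lists were chosen with earlier results of these data known. With 200 of 42436 simulated probes changed by 1 log2 unit, the model recovered 81% in the comparison of MS and LW at day 110, 60% in that of their changes with age and 71% in that of the crosses at day 110. The simulated noise was drawn separately for each fetus, without litter or slide effects, so these shares do not cover likeness among littermates. Alternatives changed the signal column, the deposited values, background correction (normexp, offset 50), scaling (75th percentile), the filter, non-uniform spots, slide as a block, the mean of all probes of a gene, the purebreds alone, and left out each MSLW fetus of day 110. The number of arrays limits the precision.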

Additional observations from a re-analysis of the deposited data

Results flagged for a closer look

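In 3 of 64 groups of fetuses, 1 per gene and group (4.69%), a single fetus stood far from the others, and chance alone gives about 5% of groups. The highest PHKA1 value in LWMS at day 110 was 12.24, with the next at 11.87 and the lowest at 11.63. The highest PHKB value in MS at day 110 was 11.76, with the next at 11.45 and the lowest at 11.37. The lowest PPP1R3C value in MS at day 110 was 13.40, with the next at 13.76 and the highest at 14.03.

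The change with age differed between MS and LW, by the test of the difference, for PYGM (0.93) and UGP2 (0.83). It differed by the breed of the sow for PYGM (0.54) and UGP2 (0.37) and by the breed of the boar for UGP2 (0.46). The sow and boar calls lie near the threshold, and none was kept with the median spot signal, the deposited values or normexp.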

How the results depend on the processing

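The alternatives were counted only for results of single members that passed as reported or newly passed under an alternative. Of these 553 values, 528 kept direction and side of the threshold, 22 no longer passed, 3 newly passed and none reversed. Member results that passed nowhere were left out, so the count does not show how often small differences changed sign. The changes with age by sow genotype, 2 members as reported, came to 0 under median spot signal, deposited values, normexp and no filter, to 1 with non-uniform spots kept, and to 0 to 2 with 1 MSLW fetus of day 110 left out. By boar genotype, 1 member as reported came to 0 under median spot signal, deposited values and normexp. The cause was not tested. With the mean of all probes of a gene, GBE1 passed for age in LW (0.49) and PHKB for the difference in change (0.63). The PHKB mean takes in probes named by the study's lists only, which are not independent of this comparison. Scaling to the 75th percentile moved the median change of all probes in MS to 0.13 and changed no member's call, nor did slide as a block. No paired analysis was possible because the labels give each fetus a number of its own, shared with no other fetus, and name neither litter nor pair. Dim probes (PHKG1, O13134, O11457) carry signal near background.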
